A study of Mus musculus with 2 samples.

Results

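The 10 genes described here are the corticosteroid receptors Nr3c1 and Nr3c2 and 8 genes that respond to glucocorticoids in many tissues, namely Fkbp5, Sgk1, Tsc22d3, Hif3a, Cdkn1a, Plin4, Pdk4 and Sult1a1. They were chosen by name, and all 10 were among the 15738 named genes measured on both arrays. Messenger RNA was measured in brain tissue of male mice aged 12 weeks, on the C57Bl/6 N background, that carried the interleukin-18 gene (Il18+/+) or lacked it (Il18-/-). Each genotype was represented by 1 Agilent array, hybridised with the mixed RNA of 7 mice. The tissue is labelled hippocampus, but the protocol for RNA extraction speaks of prefrontal cortex, and all 9 genes of a hippocampal neuron list and all 9 of a neocortical neuron list were measured on both arrays. How the Il18 allele was made, whether the groups were littermates, and the hour and handling at collection, which set corticosterone in a mouse, are not given in the sources used here. Since pools were not repeated, differences could not be tested or checked in replicates, and the values describe these 2 arrays.

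Glucocorticoids are steroid hormones of the adrenal cortex, corticosterone being the main one in mice. In the brain they bind 2 related receptors, the glucocorticoid receptor encoded by Nr3c1 and the mineralocorticoid receptor encoded by Nr3c2. The mineralocorticoid receptor binds corticosterone more tightly and is rich in hippocampal neurons, while the glucocorticoid receptor is widespread and is filled mainly at the daily peak and under stress. Hormone-bound receptor enters the nucleus, binds DNA and raises or lowers transcription, and some of the genes it raises, Fkbp5 among them, restrain the receptor in turn.

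Each of the 10 genes read lower in Il18-/- than in Il18+/+, by amounts that ran from almost nothing to 1.72-fold. The largest difference was that of Hif3a, followed by Plin4 and Tsc22d3, and the smallest was that of Fkbp5. Levels are log2 intensities minus the 75th percentile of the array, and differences are Il18-/- minus Il18+/+ on the log2 scale. The median difference of the 10 genes was -0.21, against 0.011 for all measured genes, and without Hif3a it was -0.18. Of the 10 genes 10 were lower by any amount, as were 47.4% of all measured genes. The 10 were chosen with earlier results of these arrays known, so their shared direction is no independent evidence. At 1.5-fold or more, the size fixed for counting, 1 of the 10 was lower, against 2.57% of all genes, and 0 were higher, against 1.68%. At 1.2-fold, a size chosen after the values had been seen, 3 were lower, against 12.4% of all genes, and 0 were higher, against 7.34%. The 5th and 95th percentiles of all genes were -0.45 and 0.33, so 9 of the 10 genes were inside the range in which most genes fell, as the plot of difference against level shows.

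**Figure D1:**
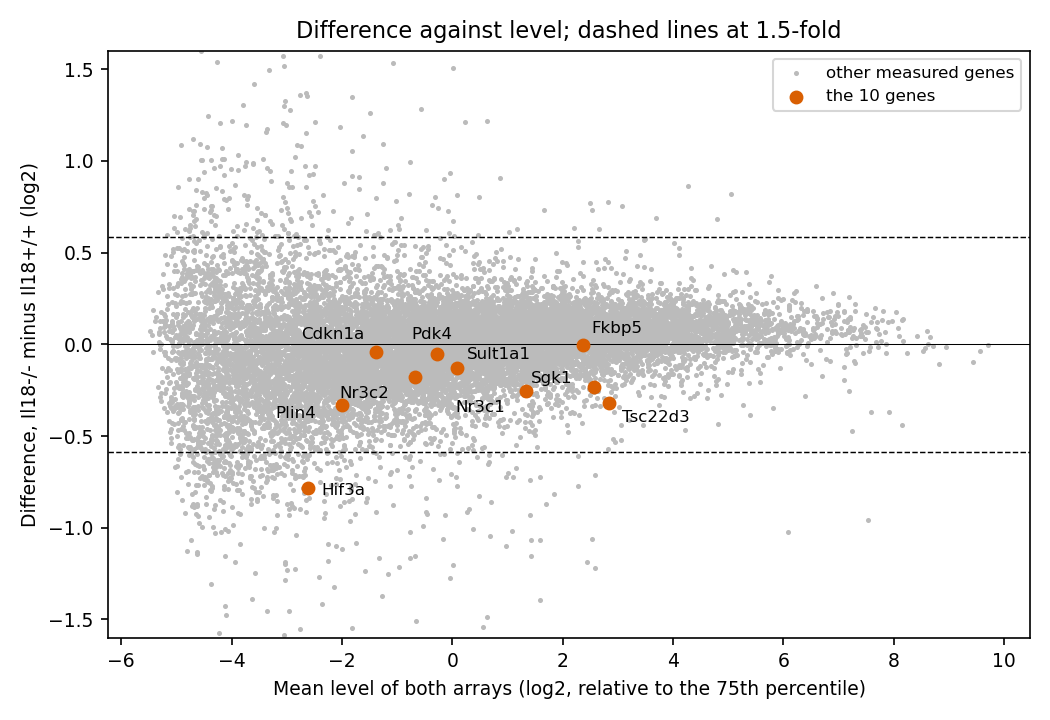
Difference (Il18-/- minus Il18+/+, log2) against the mean level of both arrays for 15738 genes, each point being 1 gene and the 10 corticosteroid genes in orange. All 10 lie below 0 and only Hif3a, at -0.78, lies below the dashed line at 1.5-fold; 58 genes beyond 1.6 in either direction are not drawn.

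Direction depends on how the arrays are scaled for the genes near 0. With each array's median subtracted in place of the 75th percentile, which moved the median of all genes to 0.069, 7 of the 10 genes were lower. Scaling to the spike-in controls moved the median of all genes to -0.28, and 93.9% of all genes were then lower. These scalings shift every gene alike, so the median of the 10 genes stays at -0.22 relative to that of all genes. It was -0.14 with normexp background correction and -0.14 with no background correction. The split of all genes at 1.5-fold, 405 lower and 265 higher, was 287 and 330 with loess normalization, 324 and 312 with quantile normalization, 317 and 321 with the median, and 1659 and 130 with the spike-in scaling.

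The receptors were read by 3 probes. For Nr3c2 the single probe read an intensity of 460 in Il18+/+ and 416 in Il18-/-, levels of -0.60 and -0.77, a difference of -0.18 or 1.13-fold. Around its spot, 3 of the 18 neighbouring spots read 2-fold or more lower in Il18-/-. The error that the scanner software assigns to the Nr3c2 difference was 0.205, larger than the difference itself. For Nr3c1 the mean over 2 probes went from 1.46 to 1.21, a difference of -0.26, but the probes went opposite ways. The brighter Nr3c1 probe went from an intensity of 8071 to 9171, a difference of 0.15. The dimmer one went from 455 to 294, a difference of -0.66 or 1.58-fold lower. Both probes carry the same transcript accession, NM_008173, and where in the transcript each lies was not analysed here. The gap between these probes was 0.82. Of 3422 genes with 2 measured probes, 40.9% had probes on opposite sides of 0, and 2.22% had a gap as large as that of Nr3c1. The files therefore give no single direction for the glucocorticoid receptor transcript, and the gene's mean difference rests on the dimmer probe.

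**Figure D2:**
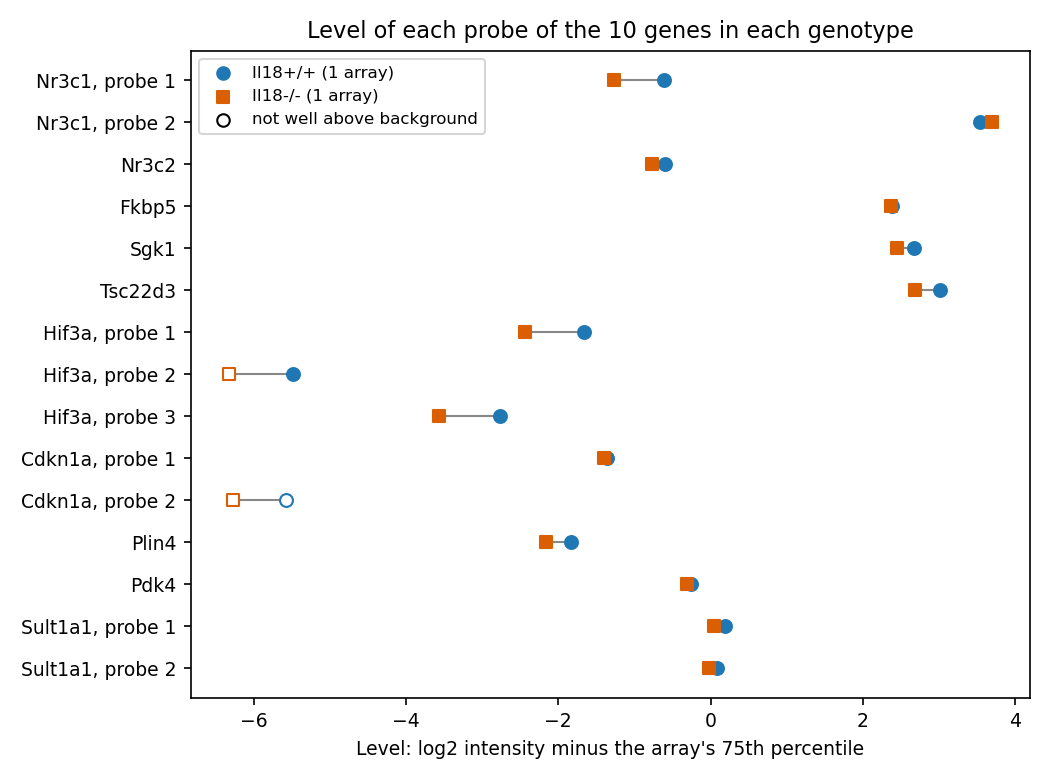
Level of each of the 15 probes of the 10 genes on the Il18+/+ array (blue circles) and the Il18-/- array (orange squares), as log2 intensity minus the array's 75th percentile; open symbols were not well above background. The Nr3c1 probes move in opposite directions, by -0.66 and 0.15, while the 3 Hif3a probes all read lower in Il18-/-.

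How far single spots can be trusted was judged from probes printed about 10 times on each array. At the levels of Fkbp5, Sgk1 and Tsc22d3 the standard deviation of their differences was typically 0.055, 0.053 and 0.054, and at that of Plin4 it was 0.12. The error that the scanner software itself assigns was larger, 0.20 for the difference of the brighter genes and 0.21 for Plin4. Both cover technical error within the arrays and leave out animals and pools. Among the 13 probes of the 10 genes that were well above background on both arrays, 8 were lower by more than the 95th percentile of the repeated-spot spread at a like level and 1 was higher. The same held for 20.5% and 25% of all named probes, so differences past this limit were common between these arrays. The limit is itself a standard deviation, the 95th percentile of those of the repeated probes, so spot noise alone can pass it. Of the probes of the 10 genes past it, that of Nr3c2, a Sult1a1 probe and the brighter Nr3c1 probe were inside the software error.

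Fkbp5 and Tsc22d3 encode proteins that act back on the receptor or its targets. Fkbp5 encodes FKBP51, a co-chaperone that lowers the receptor's affinity for hormone and is widely used as a readout of receptor activity. Its probe read intensities of 3611 and 3677, levels of 2.38 and 2.37, a difference of -0.0051, which is inside the spot spread of 0.055. That spread leaves out animals and pools, and the difference was -0.058 with loess normalization and -0.30 under the spike-in scaling, both outside it. Tsc22d3 encodes GILZ, a leucine zipper protein that carries part of the anti-inflammatory action of glucocorticoids. It read intensities of 5590 in Il18+/+ and 4569 in Il18-/-, levels of 3.01 and 2.69, a difference of -0.32 or 1.25-fold lower. Of all measured genes 9.11% had a difference as low as that of Tsc22d3 or lower, against 46.4% for Fkbp5. Both feedback genes were brightly read, and whether their differences differ could not be tested.

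Sgk1 encodes a kinase that regulates ion channels and transporters and is induced through both receptors. Its probe read intensities of 4446 and 3861, levels of 2.68 and 2.44, a difference of -0.23 or 1.18-fold lower. This difference lay beyond the spot spread of 0.053 and near the software error of 0.20, and it was -0.14 on the median signal with normexp background correction.

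Hif3a differed most. It encodes a member of the hypoxia-inducible factor family, some forms of which dampen the other family members, and it is induced by glucocorticoids in several tissues. The first probe went from an intensity of 220 to 131, levels of -1.66 and -2.44, a difference of -0.78. The next went from 102 to 60.1, levels of -2.77 and -3.56, a difference of -0.79. These probes agreed within 0.016, and their mean difference, -0.78, was 1.72-fold lower, with 1.004% of all measured genes as low or lower. The remaining probe was well above background in Il18+/+ only, at intensities of 15.5 and 8.85, too dim to give a fold. None of the 3 spots lay among spots that differed together, since at most 1 of the 18 neighbouring spots was lower by 2-fold or more and the median difference of their neighbours ran from -0.018 to 0.054. With normexp background correction the difference was -0.50, which is under 1.5-fold.

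Plin4, Pdk4 and Sult1a1 are metabolic genes. Plin4 encodes a protein that coats lipid droplets, and it read intensities of 195 and 158, levels of -1.83 and -2.16, a difference of -0.33 or 1.26-fold lower. Pdk4 encodes a kinase that shuts down pyruvate dehydrogenase and so spares glucose. It read intensities of 581 and 572, a difference of -0.052, within the spot spread of 0.072. Sult1a1 encodes a sulfotransferase for phenols. Its probes read 0.19 and 0.091 in Il18+/+ and 0.049 and -0.020 in Il18-/-. Their differences were -0.14 and -0.11, a mean of -0.13 or 1.09-fold lower, inside the software error of 0.20. The spots around these probes had median differences of -0.15 and -0.053, against -0.11 around Pdk4 and 0.093 around Plin4. The part of spot position in these readings was not tested. Of these metabolic genes Plin4 stood clearest of the spot spread.

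Cdkn1a encodes p21, an inhibitor of cyclin-dependent kinases that responds to p53 as well as to glucocorticoids. One of its probes was printed 10 times. In Il18+/+ these spots read from -1.46 to -1.21 with a median of -1.38, and in Il18-/- from -1.57 to -1.27 with a median of -1.38. The ranges overlapped, 3 spots were higher and 7 lower in Il18-/-, and the mean difference was -0.041 ± 0.10 (SD over 10 spots of 1 array pair). Another probe, for a second transcript accession, was not well above background on either array. Of 7 measured p53 targets 5 were higher and 2 lower, with a median of 0.12 that was -0.18 under the spike-in scaling, and Bbc3, which encodes a cell death protein, was highest at 0.45.

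DNA letters near the starts of these genes are shown for 3 of them, because Sgk1 holds the complete receptor motif, Tsc22d3 holds 1 arm of it and Hif3a, with the largest difference, holds neither. The corticosteroid receptors bind as dimers to a palindrome that was searched as AGAACA, any 3 bases and TGTTCT, the same on both strands, and as either 6-base arm alone, which the full motif includes. Windows were the 250 bases before each start in RefSeq, build GRCm38.p6, written 5′ to 3′ on the gene's strand with arms in capitals. Of 32851 such windows 3 held the full motif and 16.1% held an arm.
Sgk1, chr10:21993640-21993889, plus strand: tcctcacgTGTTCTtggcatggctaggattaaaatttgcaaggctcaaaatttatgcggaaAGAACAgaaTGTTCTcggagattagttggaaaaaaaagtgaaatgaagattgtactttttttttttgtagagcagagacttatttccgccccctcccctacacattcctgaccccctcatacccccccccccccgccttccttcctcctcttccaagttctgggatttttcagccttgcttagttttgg
Tsc22d3, chrX:140600523-140600772, minus strand: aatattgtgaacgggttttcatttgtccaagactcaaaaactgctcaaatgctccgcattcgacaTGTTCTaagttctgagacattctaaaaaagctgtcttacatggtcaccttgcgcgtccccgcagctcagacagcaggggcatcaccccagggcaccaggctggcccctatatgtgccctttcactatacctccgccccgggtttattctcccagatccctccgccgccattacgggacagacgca
Hif3a, chr7:17062428-17062677, minus strand: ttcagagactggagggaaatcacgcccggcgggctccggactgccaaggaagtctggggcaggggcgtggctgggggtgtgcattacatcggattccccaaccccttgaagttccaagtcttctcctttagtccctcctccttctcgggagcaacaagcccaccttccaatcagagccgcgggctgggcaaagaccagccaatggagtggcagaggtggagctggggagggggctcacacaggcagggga
The full motif of Sgk1 starts 189 bases before that start and 965 bases before the next one downstream. Of 17 windows for 9 of the 10 genes, 5 held an arm, and they belonged to 3 genes. Sgk1 had an arm in 3 of its 6 windows, Tsc22d3 in 1 of 3 and Sult1a1 in its single window. The single windows of Nr3c2, Fkbp5, Hif3a, Plin4 and Pdk4 and both windows of Cdkn1a had none. Known receptor sites of Fkbp5 lie within introns, outside such windows. A match describes letters and does not show that a receptor bound there.

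The proteins that fold the receptor and assist it at DNA form one list. Another, labelled corticosteroid supply, holds enzymes and carriers that make, regenerate, carry, inactivate or export its hormone. Of 20 chaperones and cofactors, all measured, 10 were higher and 10 lower, 0 reached 1.5-fold, and the median was -0.0058, or 0.052 with the median scaling. Fkbp4, which encodes the co-chaperone that opposes FKBP51, differed by -0.063. The largest differences were those of the coactivator acetyltransferase genes Ep300, at -0.33, and Crebbp, at -0.27, of the chaperone gene Dnajb1, at -0.25, and of the coactivator gene Ncoa3, at 0.17. Among corticosteroid supply genes 8 of 12 were measured, of which 7 were higher and 1 lower. Their median was 0.15, or -0.15 under the spike-in scaling. Since genes that supply the hormone and genes that remove it were counted together, the count gives no direction of supply. The higher genes included the inactivating enzyme gene Srd5a1, at 0.14, and the export pump genes Abcb1a and Abcb1b, at 0.063 and 0.071. Hsd11b1, which encodes the enzyme that regenerates active corticosterone inside cells, went from 2.21 to 2.36, a difference of 0.15. H6pd, whose product supplies that enzyme with its cofactor, differed by 0.30, and Cyp11a1, the first enzyme of steroid synthesis, by 0.50 at dim levels of -3.64 and -3.14. Star, which encodes a cholesterol carrier of steroid synthesis, differed by 0.15. Hsd11b2, Serpina6, Cyp11b1 and Cyp11b2 were not well above background on either array.

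Stress axis peptides and receptors had 7 of 11 members measured, 3 higher and 4 lower, with a median of -0.11 that was 0.038 by the brightest probe and 0.040 with no filter on dim probes. Avp, the vasopressin gene, was 1.75-fold higher at dim levels of -4.10 and -3.29, the 1 member at 1.5-fold, though it was under that size in 3 of the 11 alternatives, 0.42 at the lowest. Crhr2, a receptor for urocortins that choroid plexus also expresses, differed by -0.53, Avpr1b by 0.53 and Crhbp by -0.26. Crh, which encodes the releasing hormone of the axis, differed by -0.11. Ucn3, which encodes a ligand of that receptor, was well above background in Il18+/+ only. Its level there was 2.79-fold above the lowest level called above background on the Il18-/- array, a size that leaves out measurement error. Among other steroid receptors Pgr, the progesterone receptor gene, differed by -0.26 and Esr2, an estrogen receptor gene, by -0.090.

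A wider list of 23 other glucocorticoid-responsive genes, all measured, did not share one direction. Of these 9 were higher and 14 lower, 0 reached 1.5-fold, and the median was -0.051, or 0.0065 with the median scaling. Dusp1, which encodes a phosphatase of MAP kinases, was highest at 0.54, and Pik3r1, a regulatory subunit of PI3 kinase, was lowest at -0.50. Map3k6 differed by 0.41 and Zbtb16, a transcription factor gene strongly induced by glucocorticoids, by 0.36. The clock gene Per1 went from 3.76 to 3.54, a difference of -0.22, and Klf9, a transcription factor gene induced in neurons, differed by -0.044. In this list genes induced by glucocorticoids therefore stood on both sides of 0.

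**Figure D3:**
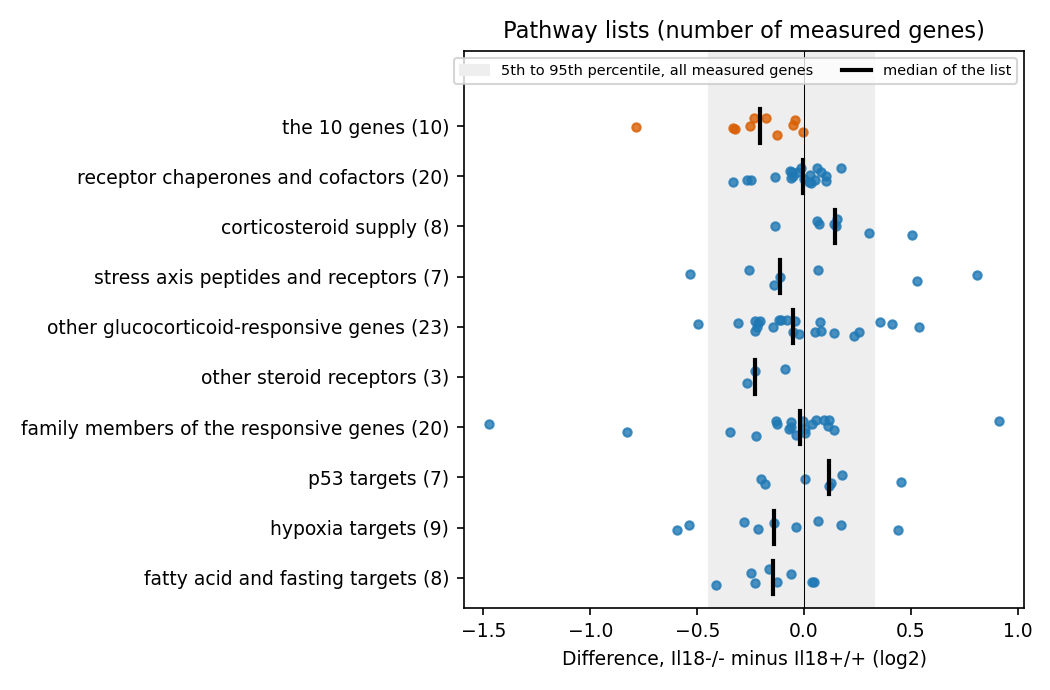
Differences (Il18-/- minus Il18+/+, log2) of the measured genes in each pathway list, each point being 1 gene, with the list median as a black bar and the 5th to 95th percentile of all genes shaded. The 10 genes, in orange, have a median of -0.21, while the 23 other glucocorticoid-responsive genes centre on -0.051 and reach from -0.50 to 0.54.

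Relatives of the responsive genes were set beside them. Of 21 such genes 20 were measured, 9 higher and 11 lower, with a median of -0.020 that was 0.037 with the median scaling and 0.020 by the brightest probe. Sult1c2 was 2.78-fold lower at dim levels of -3.36 and -4.83, and differed by -0.44 at the least, with normexp. Cdkn1c, which encodes the cell cycle inhibitor p57, was 1.77-fold lower, and Plin5, a lipid droplet gene, was 1.88-fold higher. As close relatives, picked after their values were seen, Pdk1, Pdk2 and Pdk3 differed by -0.037, -0.0036 and 0.0028. Picked in the same way, the other hypoxia-inducible factor genes read nearer 0 than Hif3a, with Hif1a at 0.057, Epas1 at -0.13 and Arnt at 0.091. The Epas1 value is the mean of 3 probes that ran from -0.41 to 0.067. Of 9 hypoxia targets 3 were higher and 6 lower with a median of -0.14. Among them Vegfa, the vascular growth factor gene, was 1.51-fold lower, but under 1.5-fold in 4 of the 11 alternatives, -0.28 at the least. Adm differed by -0.54, Car9 by 0.44 and Ndrg1 by -0.28. Fatty acid and fasting targets had 6 of 8 lower with a median of -0.15, Ucp2 being lowest at -0.41, followed by Cpt2 at -0.25, Angptl4 at -0.23 and Cpt1a at -0.16.

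Markers of several cell types moved between the arrays, and in bulk RNA fewer cells of a type and less RNA per cell cannot be told apart. All 13 choroid plexus markers were at least 1.5-fold lower in Il18-/-, with a median of -1.18. Their summed level, as linear signal over the 75th percentile, went from 384 to 193, and none was at background. Mural and meningeal markers were lower in 11 of 12 cases with a median of -0.35, 4 of them by 1.5-fold or more, and their summed level went from 32.3 to 23.1. Oligodendrocyte markers were lower in 10 of 12 cases with a median of -0.20, and their summed level went from 311 to 245. Endothelial markers were lower in 6 of 11 cases with a median of -0.054, or 0.0096 at the highest of the alternatives, and their summed level went from 33.4 to 32.1. Liver markers were higher in 9 of 10 measured cases with a median of 1.93, and all 7 measured medial habenula markers were higher with a median of 1.57. The summed levels of these went from 2.51 to 6.23 and from 2.32 to 8.41. Astrocyte and microglia markers had medians of -0.0020 and 0.0031, with summed levels of 388 and 378 and of 40.2 and 42.5. Hippocampal neuron markers had a median of 0.16, or -0.13 under the spike-in scaling, with a summed level that went from 42.5 to 50.02. Neocortical neuron markers had a median of -0.17, with summed levels of 8.34 and 8.27. The part of these cell types in the lower readings of Hif3a, Plin4, Tsc22d3 and Sgk1 was not tested. Il18, the targeted gene, went from 1.37 to -0.12, and the place of its probe relative to the deleted part was not analysed here.

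**Figure D4:**
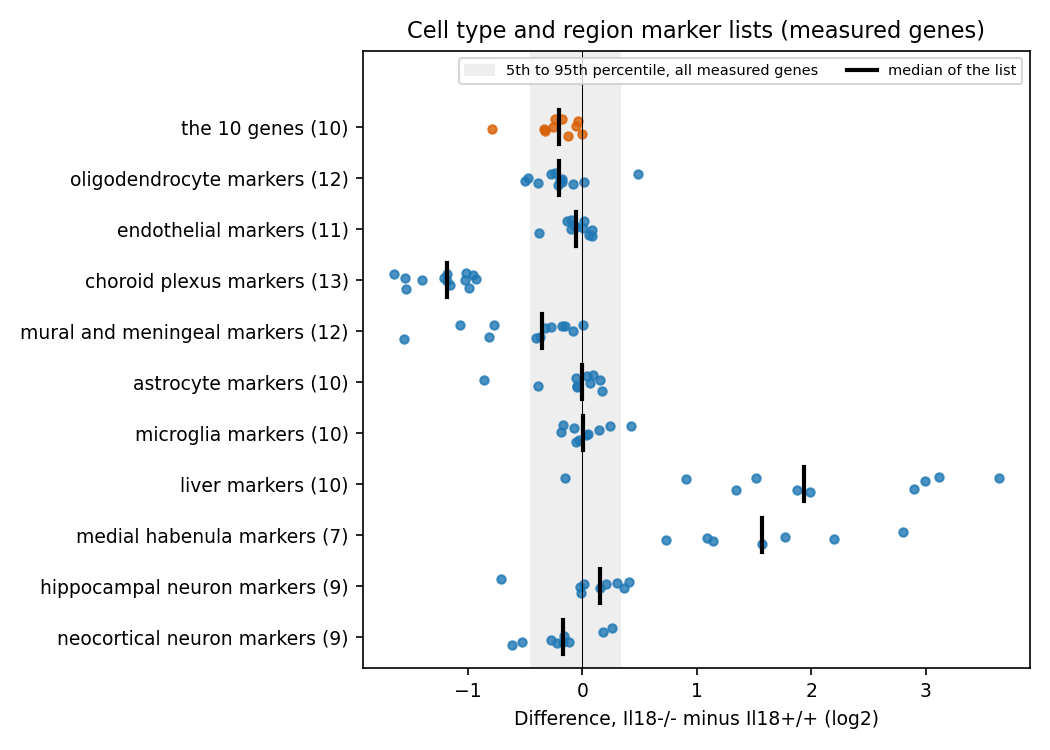
Differences (Il18-/- minus Il18+/+, log2) of measured marker genes of each cell type or region beside the 10 corticosteroid genes in orange; bars are list medians and the shaded band is the 5th to 95th percentile of all genes. The choroid plexus markers lie at -0.93 and below. The median of the 10 genes, -0.21, is near those of the oligodendrocyte markers, -0.20, and the neocortical neuron markers, -0.17, a likeness that was not tested.

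Hif3a, Plin4, Tsc22d3, Sgk1, Nr3c2 and Sult1a1 stayed lower in Il18-/- under each of the 11 alternative settings, as the plot of each gene by setting shows. Without the spike-in scaling their differences ranged from -0.80 to -0.50 for Hif3a, -0.33 to -0.24 for Plin4, -0.39 to -0.26 for Tsc22d3, -0.29 to -0.14 for Sgk1, -0.18 to -0.12 for Nr3c2 and -0.14 to -0.069 for Sult1a1. Fkbp5 changed sign in 3 of the 11 settings, and Nr3c1, Cdkn1a and Pdk4 in 1 each. Some settings could not turn a lower gene higher. The deposited values are the main intensity times a constant per array, which the scaling removes, and the spike-in scaling moves every gene down. Keeping outlier spots or filtering dim probes more strictly left the difference of each of the 10 genes unchanged. For the 6 genes with 1 probe, Plin4, Tsc22d3, Sgk1 and Nr3c2 among them, taking the brightest probe or dropping the filter could not change the difference. Dropping the filter could not change that of Sult1a1 either, since all its probes passed. These settings share the same 2 arrays and say nothing of how other mice would differ.

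**Figure D5:**
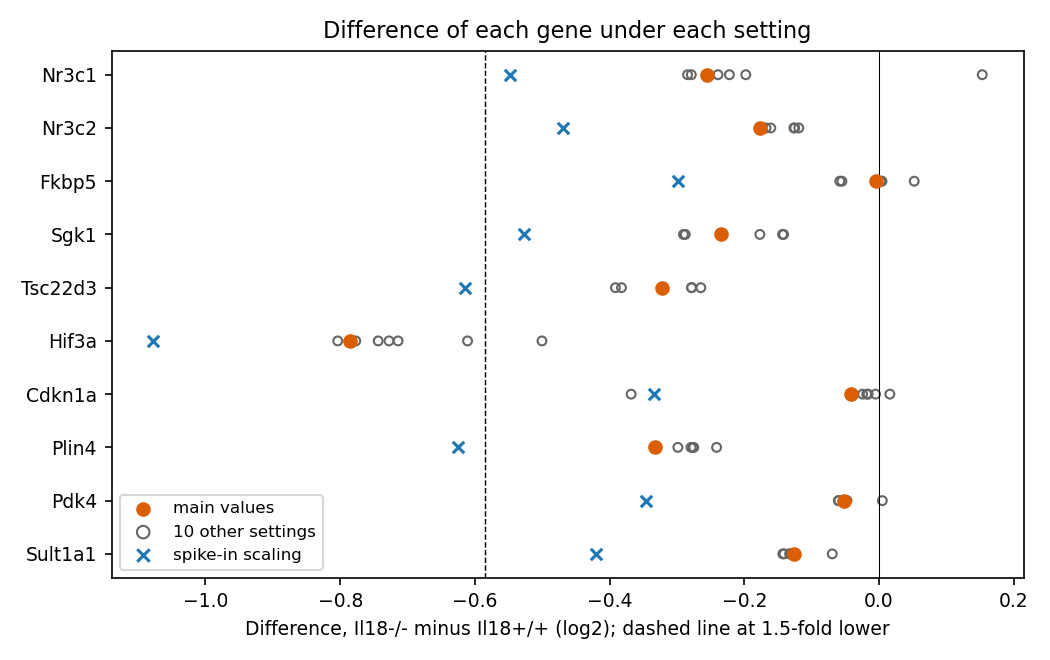
Difference (Il18-/- minus Il18+/+, log2) of each of the 10 genes in the main values (orange), 10 other settings (open circles) and the spike-in scaling (crosses), with a dashed line at 1.5-fold lower. Hif3a is past that line in 10 of the 11 alternatives, and the spike-in scaling moves every gene down by 0.29.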

How the data were processed

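The deposited intensity values were extracted by the authors in 1 colour (Cy3) with Agilent Feature Extraction, version 10.10.1.1 per the submitters' processing notes. Per the file headers the processed intensity is background-subtracted within each array. The array design refers to mm9, and the arrays shared 1 slide and 1 scan. The value table the authors deposited is this intensity times 2.05 (Il18+/+) or 1.92 (Il18-/-), linear and uncentred, with medians of 151.5 and 139.5. What these constants were set to is unknown, and it was used as an alternative.

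Of 59305 non-control spots per array, outliers (124 and 177) were left out and none was saturated. The log2 intensity minus the array's 75th percentile (694.8 and 709.9) was averaged over spots of a probe, then over a gene's probes well above background on both arrays (67.2% and 65.4% of probes were so on each). A probe printed several times had to be so in at least 0.5 of its spots. Accessions without versions were matched to RefSeq GRCm38.p6, naming 27234 of 55675 probes.

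No test was made. Named genes were all 10 members, Il18, Hsd11b1, Fkbp4, Per1, Klf9, Dusp1, Zbtb16 and, in each pathway list, genes at 1.5-fold and otherwise up to 4 with the largest difference. Crh, Ucn3, Srd5a1, Abcb1a, Abcb1b and the genes not above background were named after their values were seen. The members and the 19 other lists were chosen with earlier results of these data known. A withheld item is not reported here. Calculations were tested on simulated data. The alternatives used limma 3.58.1 in R 4.3.3 (normexp, offset 50) and statsmodels 0.14.6 (loess), and the rest Python 3.11.15 with pandas 2.3.3, numpy 2.4.6, scipy 1.17.1 and matplotlib 3.10.9.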

Additional observations from a re-analysis of the deposited data

Results flagged for a closer look

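Spike-in controls, RNA added in fixed amounts and used for genes only in the spike-in scaling, gave a signal that differed between the arrays. After scaling to the 75th percentile, the 8 spike-in probes well above background differed by 0.17 to 0.36 on the log2 scale, the median being 0.29, and each read higher on the Il18-/- array. Scaled to these controls, Hif3a differed by -1.08, Plin4 by -0.63, Tsc22d3 by -0.61 and Fkbp5 by -0.30.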

How the results depend on the processing

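No paired analysis was possible because each genotype had 1 pooled sample. The median of the 10 genes was -0.50 under the spike-in scaling. In the other 10 alternatives it stayed within the median spread of repeated spots, 0.075, of its main value. With the deposited values it equals the main value by construction, and it did not change with outlier spots kept or the stricter filter. The count of the 10 genes at 1.5-fold lower was 3 under the spike-in scaling, which added Plin4 and Tsc22d3, and 0 with normexp background correction, and 1 otherwise. The count higher was 0 throughout. All genes at 1.5-fold numbered 107 lower and 114 higher with normexp, 147 and 133 with no background correction, 1356 and 814 with no filter on dim probes, and 1659 and 130 with the spike-in scaling. Nr3c1 differed by 0.15 when read by its brightest probe, and Cdkn1a by -0.37 when its dim probe was included. Of 649 values for lists and all genes, 574 stayed within the spot spread or within 1.5 times the main count and 75 moved. The 574 include those from the deposited values, which could not move. The causes of the moves were not tested. With 1 array per genotype, precision is limited by their number, and levels near -5 are close to background.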
